A study of Mus musculus with 32 samples.

Results

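The 40 mouse genes described here belong to the MHC class I pathway and the interferon response. They were chosen by name, from knowledge of both pathways and with earlier results of these data known. All 40 were found among the 53558 gene rows of each library. By role they comprised 4 genes of the class I molecule itself (H2-K1, H2-D1, H2-T23 and B2m), 3 of peptide loading (Tap1, Tap2 and Tapbp), the class I transactivator Nlrc5 and 3 subunits of the immunoproteasome (Psmb8, Psmb9 and Psmb10). A further 5 were interferon signalling factors (Stat2, Irf1, Irf3, Irf7 and Irf9), 3 belonged to innate sensing (Tbk1, Mavs and Ifih1) and 4 were interferon receptor chains (Ifnar1, Ifnar2, Ifngr1 and Ifngr2). The largest set was 16 interferon-stimulated genes (Isg15, Ifit1, Ifit2, Ifit3, Ifi35, Rsad2, Oas2, Oasl2, Usp18, Bst2, Eif2ak2, Parp9, Parp14, Dtx3l, Xaf1 and Rtp4). The last gene was the checkpoint ligand Cd274, which encodes PD-L1.

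Nearly every nucleated cell displays peptides cut from its own proteins on class I molecules, each made of a heavy chain and beta-2 microglobulin, and CD8 T cells read them. The proteasome, in its interferon-inducible form with the subunits of Psmb8, Psmb9 and Psmb10, cuts the peptides, the TAP transporter carries them into the endoplasmic reticulum, and tapasin (Tapbp) helps to load them. Interferons bind their receptors and act through STAT and IRF factors on interferon-stimulated genes, many of which encode antiviral proteins, and interferon gamma also raises the class I genes through IRF1 and NLRC5. Loss of class I presentation is a known route by which lung adenocarcinomas escape T cells.

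Bulk RNA-seq was available for 32 libraries of neoplastic cells sorted from mouse lung tumors, and the question was how these genes differ with the state of Lkb1 (gene symbol Stk11) and of Trp53. Every group carried KrasLSL-G12D/+ and the R26LSL-tdTomato reporter on a mixed genetic background, and lentiviral Cre delivered to the airways started the tumors. KT mice had wild-type Lkb1 and were untreated (4 libraries). In Lkb1XTR/XTR mice Cre flips a gene trap into Lkb1, and the tamoxifen-dependent recombinase FLPo-ERT2 can later remove it. Non-restored tumors (10 libraries) pooled 6 libraries with FLPo-ERT2 that received vehicle and 4 libraries without FLPo-ERT2 that received 4 mg doses of tamoxifen. Restored tumors (7 libraries) had FLPo-ERT2 and received tamoxifen. Treatment lasted 2 weeks. These 3 groups were collected at 24 to 27 weeks. The same non-restored and restored states were profiled with both Trp53 copies deleted by Cre at 16 to 19 weeks, as 7 libraries from 4 animals and as 4 libraries from 4 animals. Age and Trp53 status therefore cannot be told apart. Both restored groups were entirely female, and the other 3 held both sexes. Cells were sorted for the tdTomato reporter, which Cre switches on in the tumor cells, with exclusion of cells stained for CD45, CD31, F4/80 or Ter119. Such a sort is meant to remove fibroblasts, which lack the reporter, as well as blood and endothelial cells. Markers of these cells were still read, as given below.

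Library totals ran from 1302482 to 5943951 expected counts, the KT group having the lowest median, so that 3 counts corresponded to between 0.505 and 2.30 CPM, the count scaled to library size. Stk11 matched the labels, at 16.5 to 27.1 CPM in KT, 0 to 1.07 in non-restored and 11.5 to 22.3 in restored libraries. Trp53 lay between 0.545 and 6.48 CPM in the Trp53-deficient libraries and between 11.8 and 39.3 in all others. Epcam, which marks epithelial cells, was at 205 CPM or more in every library, and Nkx2-1, the lung lineage factor, at 70.9 or more. Of the lymphocyte markers, Cd3d was at 0 in all 32 libraries, and 10 such markers summed to at most 5.12 CPM. Sums of 7 fibroblast markers had medians of 50.3 CPM in KT, 120 in non-restored and 176 in restored libraries. In the Trp53-deficient groups the medians were 213 (non-restored) and 164 (restored), and restored library 1 reached 1520 CPM. Sums of 7 endothelial markers reached 134 CPM, in non-restored library 10. The part of such cells in the differences between groups was not tested. Non-restored library 8 stood apart, being the highest or the lowest of its group in 24.7% and 23.5% of all genes. No source states that all libraries of the Trp53 wild-type groups came from separate mice. For the non-restored and restored groups the study counts fewer mice than there are libraries, so libraries of these groups may share a mouse. P-values there treat libraries as independent, and would be too small where mice are shared. In bulk samples, fewer cells of a type and less RNA per cell cannot be told apart.

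Promoter sequence was available for 33 of the 40 genes (250 bases before each start site, RefSeq, GRCm38.p6), and 5 genes are shown, the 4 of the class I molecule because the results below turn on them and Ifit3 as an interferon-stimulated gene to set beside them. Tap2, Nlrc5, Oas2, Usp18, Parp9, Parp14 and Rtp4 had no entry. Classical class I genes and B2m share an upstream module that NLRC5 acts through, in which an X2 box and a Y box lie at a fixed spacing. A search for the letters TGACG followed after 20 bases by ATTGG, on both strands, matched H2-K1, H2-D1 and B2m among the 33 genes searched, and 30 of 32851 promoters (0.0913%). These elements, with the X2 and Y letters in capitals, started 41 bases before the H2-K1 start site, 101 before that of H2-D1 and 78 before that of B2m.
H2-K1: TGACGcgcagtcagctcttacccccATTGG
H2-D1: TGACGcgctggcaggtctcactatcATTGG
B2m: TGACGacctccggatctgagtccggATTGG
The other search was for the core of the interferon-stimulated response element, GAAANNGAAA on either strand, which matched 8 of the 33 genes (B2m, Bst2, H2-T23, Ifit1, Ifit3, Isg15, Rsad2 and Stat2) and 2.98% of all promoters. The non-classical gene H2-T23 held this core, 124 bases before its start, and no match to the spaced X2 and Y letters. Its match is given below in 30 bases of the minus strand, from the window chr17:36032702-36032951, with the core in capitals.
H2-T23: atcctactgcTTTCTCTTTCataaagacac
B2m held both matches without overlap, which makes it the only gene of the 33 with both exact patterns. Variants of these elements were not searched, so a gene without a match may still hold one. In the complete windows of B2m (chr2:122147437-122147686, plus strand), H2-K1 (chr17:34000348-34000597, minus strand) and the interferon-stimulated gene Ifit3 (chr19:34583279-34583528, plus strand), the capitals mark these matches.
B2m: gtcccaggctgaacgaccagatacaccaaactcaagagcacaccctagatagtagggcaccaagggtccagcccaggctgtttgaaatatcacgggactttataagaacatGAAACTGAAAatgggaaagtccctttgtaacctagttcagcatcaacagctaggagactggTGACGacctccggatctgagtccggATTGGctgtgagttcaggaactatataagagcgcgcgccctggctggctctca
H2-K1: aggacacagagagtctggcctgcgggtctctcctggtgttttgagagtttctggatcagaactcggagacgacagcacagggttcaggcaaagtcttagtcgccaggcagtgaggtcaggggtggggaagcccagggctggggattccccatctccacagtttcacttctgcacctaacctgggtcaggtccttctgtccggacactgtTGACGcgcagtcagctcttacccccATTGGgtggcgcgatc
Ifit3: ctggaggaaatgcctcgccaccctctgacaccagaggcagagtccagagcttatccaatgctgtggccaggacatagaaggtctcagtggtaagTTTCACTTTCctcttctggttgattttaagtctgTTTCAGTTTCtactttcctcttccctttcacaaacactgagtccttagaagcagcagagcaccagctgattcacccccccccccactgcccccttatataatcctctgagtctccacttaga
Ifit3 held the response element core at 2 places, 156 and 122 bases before its start. A match describes letters in this window and is no measure of binding. Start sites here are those of RefSeq. The matches of H2-D1 and H2-T23 lie inside the gene positions given below, which are from GENCODE.

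TPM, the transcript abundance that RSEM scales for gene length, allowed levels to be compared between genes. The class I molecule led the list, with a median over 32 libraries of 892.5 TPM for B2m, 384.7 for H2-K1 and 351.4 for H2-D1. The non-classical heavy chain gene H2-T23, which encodes Qa-1, was far lower at 30.1 TPM. Receptor chains and sensors followed, among them Ifnar2 at 46.3, Tbk1 at 26.6 and Ifih1 at 26.4 TPM. The interferon-stimulated genes spanned from 19.9 TPM for Eif2ak2, the RNA-activated kinase PKR, to 0.07 for Rsad2 and 0 for Oas2. Rsad2 had no count in 15 libraries and Oas2 in 19, and Nlrc5 and Ifit3 were at 0 in 4 libraries each. A library at 0 allows a level of up to 3 counts, so these genes were not detectable at this depth there. The list therefore held abundant class I transcripts beside several interferon-stimulated genes near the limit of detection. Transcripts of interferons themselves were nearly undetected, with Ifnb1, Ifnl2 and Ifnl3 at 0 in all 32 libraries and 1 Ifng count in each of 2 libraries.

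**Figure D1:**
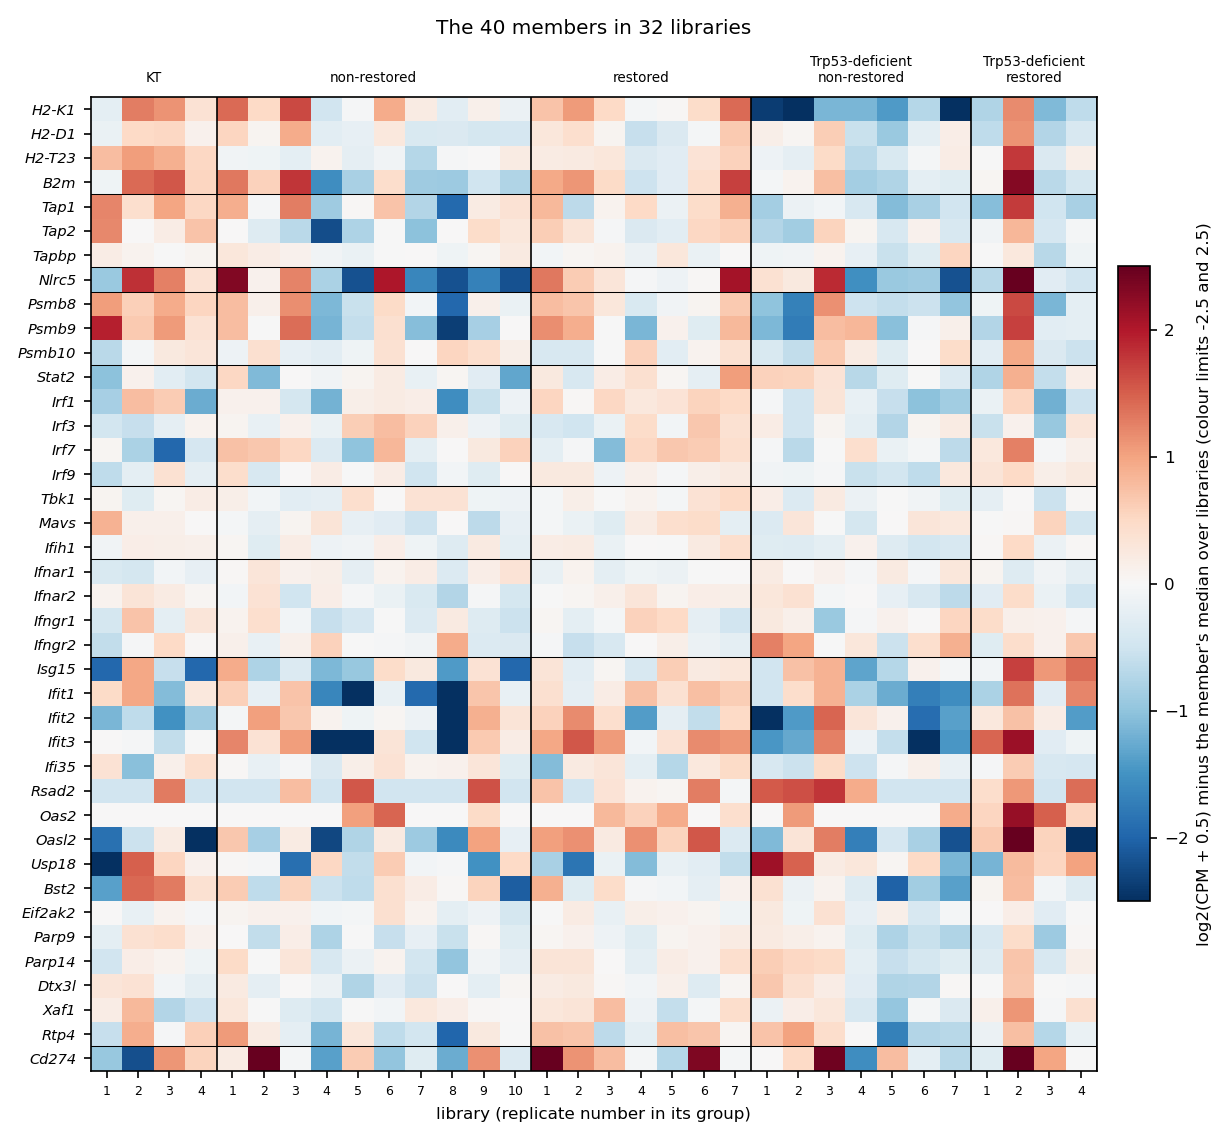
Heat map of the 40 genes (rows, ordered by role) in the 32 libraries (columns, by group and replicate number). Colour is log2(CPM + 0.5) minus the gene's median over all libraries, and the second Trp53-deficient restored library is red in most rows.

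Non-restored tumors were compared with KT tumors to ask what differs where Lkb1 had been lost. Of the 37 genes that passed the filter on low counts, 1 was called by edgeR's quasi-likelihood test at an adjusted p under 0.05 (Isg15, Rsad2 and Oas2 were too low to test), where 5.86% of all 12636 genes were called. That gene was H2-T23 (chr17:36029773-36032855, minus strand, GRCm38), whose product Qa-1 presents leader peptides of other class I chains to NKG2 receptors of natural killer and T cells. H2-T23 measured 49.7, 60.3, 53.8 and 41.5 CPM in the KT libraries (51.4 ± 7.86, SD, n = 4). In non-restored libraries H2-T23 ran from 17.5 through a median of 27.2 to 33.3 CPM (27.0 ± 4.28, SD, n = 10). Every KT library was above every non-restored library. Such separation of CPM ranges occurred in 3.88% of all genes and, among the 37, only in H2-T23.

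The H2-T23 difference was -0.93 on the log2 scale (SE 0.164), that is 1.91 times higher in KT, with an adjusted p of 0.00142 by edgeR. It was called with either treatment arm of the non-restored group alone, at -1.01 against the tamoxifen arm (adjusted p = 0.0301) and -0.87 against the vehicle arm (adjusted p = 0.00783). Sums of 25 immune markers overlapped, at 19.8 to 40.2 CPM in KT and 13.3 to 182 in non-restored libraries, with Cd3d, Cd3g, Nkg7 and Siglech at 0 in both. The value was also -0.93 without the 3 libraries richest in macrophage markers (adjusted p = 0.00462). Of these, only non-restored library 2 belonged to this contrast, and the part of immune cells in the H2-T23 result was not tested. Fibroblast markers (7 genes) summed to 15.0 to 83.1 CPM in KT and to 6.72 to 423 in non-restored libraries, and their part in the H2-T23 result was not tested.

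Of the other 10 class I genes none passed the test in this comparison, and 9 had a log2 fold change below 0, Psmb10 (0.13, SE 0.234) being the one above. All 4 class I molecule genes and all 3 peptide loading genes had a log2 fold change below 0, with medians of -0.47 and -0.62, beside a median of 0.03 over all genes. Tap2, a chain of the peptide transporter, measured 17.7, 7.44, 8.50 and 12.4 CPM in KT and from 1.19 through 6.57 to 10.4 in non-restored libraries. Its ranges overlapped, and the difference was -0.92 (SE 0.3603, adjusted p = 0.14). Psmb9, an inducible proteasome subunit, measured 41.6, 16.5, 22.3 and 13.4 CPM in KT and from 1.62 through 8.46 to 28.0 in non-restored libraries, a difference of -1.19 (SE 0.513, adjusted p = 0.187). B2m differed by -0.72 with an SE of 0.5263, and the classical heavy chains H2-K1 and H2-D1 by -0.19 and -0.22, each less than its SE.

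An unadjusted p under 0.05 was reached by 9 of the 37 genes (24.3%, close to the 20.8% of all genes), 6 of them lower and 3 higher in non-restored tumors. Lower were H2-T23, Tap2, Psmb9, Ifnar2 (-0.33), the adaptor Mavs (-0.49) and Parp9 (-0.45). Higher were the type I interferon receptor chain Ifnar1 (0.35, SE 0.124, adjusted p = 0.0974), the interferon-stimulated Ifit2 (1.39, adjusted p = 0.158) and the transcription factor Irf7 (1.05, adjusted p = 0.182). Ifnar1 measured 42.3, 40.5, 53.03 and 47.8 CPM in KT and from 43.3 through 60.3 to 69.9 in non-restored libraries, so the groups overlapped. The 2 chains of the same receptor thus had opposite signs, but neither passed the adjusted threshold.

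**Figure D2:**
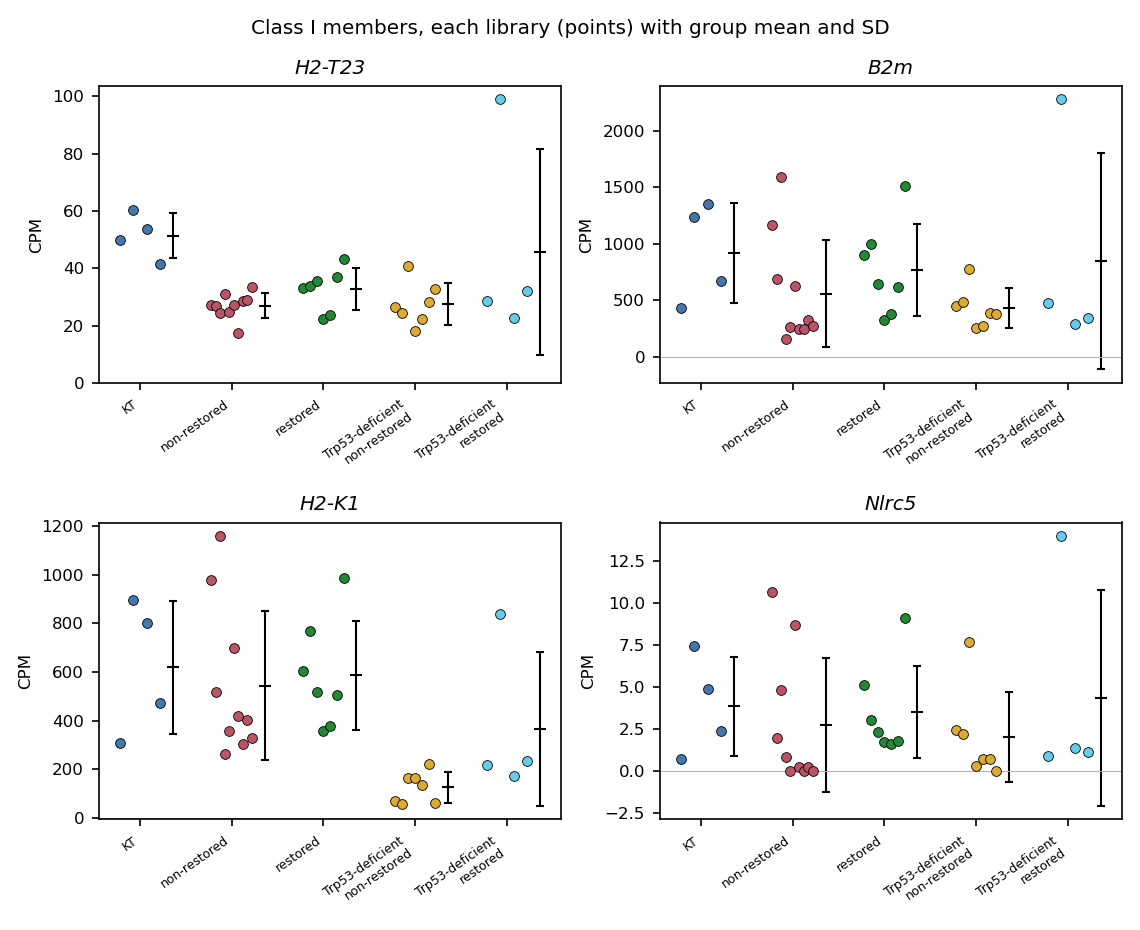
CPM of H2-T23, B2m, H2-K1 and Nlrc5 in every library (points, in replicate order within a group), with the group mean and SD as a bar beside them. The 4 KT libraries lie above all non-restored libraries for H2-T23 alone, and a single Trp53-deficient restored library is far above the others of its group in all 4 genes.

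Restored tumors were compared with non-restored tumors to ask what 2 weeks of regained Lkb1 changed. None of the 37 genes was called (1.87% of all genes were), by edgeR or by DESeq2. With both tools, 3 genes had an unadjusted p under 0.05, of 37 tested by edgeR (15.1% of all genes) and of 40 tested by DESeq2. They were Irf1, Ifnar2 and Oasl2, all higher in restored tumors. In total 29 of the 37 genes had a log2 fold change above 0 and the median was 0.20, beside -0.01 over all genes. Irf1, the factor that links interferon gamma to class I genes, ran from 36.5 through 50.5 to 52.8 CPM in restored libraries and from 11.8 through 35.5 to 41.4 in non-restored ones. Its ranges overlapped narrowly, and the difference was 0.63 (SE 0.267, adjusted p = 0.262). Oasl2, an oligoadenylate synthetase-like gene, ran from 2.91 through 8.32 to 12.2 CPM against 0.397 through 2.66 to 8.17, a difference of 1.09 (SE 0.487, adjusted p = 0.286). Among genes below 0 the smallest p was that of Ifnar1, at 46.8 through 51.4 to 59.0 CPM in restored libraries (-0.17, SE 0.0997, adjusted p = 0.46). Without the 3 libraries rich in macrophage markers, Irf1 stood at 0.60 and Oasl2 at 0.80, and both had an unadjusted p above 0.05. By edgeR, none of Irf1, Ifnar2 and Oasl2 stayed under 0.05 against the tamoxifen arm alone, and only Ifnar2 did against the vehicle arm alone. B2m, Irf9, Nlrc5, Parp14 and Psmb9 were under it against the tamoxifen arm. With sex as a covariate only Ifnar2 of the 3 stayed under it, and in female libraries alone all 3 did. The shares of all genes were not computed for these settings.

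H2-T23 was intermediate in restored tumors, with 22.3, 33.9 and 43.1 CPM as the lowest, median and highest of 7 libraries (32.7 ± 7.35, SD). It was 0.28 above the non-restored group (SE 0.140, adjusted p = 0.354) and 0.65 below KT (SE 0.176, adjusted p = 0.114), so that neither difference passed the threshold. Its restored range overlapped both other groups. Against KT, none of the 37 genes was called in restored tumors (0.459% of all genes were), by edgeR or DESeq2. At an unadjusted p under 0.05 there were 4 by edgeR (10.5% of all genes) and 5 by DESeq2. By edgeR these were H2-T23, lower, and Oasl2 (1.88, adjusted p = 0.333), Ifit2 (1.41, adjusted p = 0.384) and Irf7 (1.00, adjusted p = 0.456), higher. Ifit2 measured 2.73, 4.13, 2.02 and 3.34 CPM in KT and from 2.20 through 9.14 to 15.8 in restored libraries, with overlap. These comparisons share their KT, non-restored or restored libraries and are not independent of each other.

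Several class I genes also differed widely among libraries of the same group. The biological coefficient of variation of B2m within groups was 61.9%, 1.95 times the 31.7% that edgeR's trend gave for genes of its abundance and above 94.9% of tested genes. Nlrc5 reached 112%, Cd274 91.8%, Psmb9 60.0% and H2-K1 44.3%, each above its trend. At the other end, Tapbp varied by 13.6% and Irf9 by 19.4%, lower than all but 1.52% and 2.23% of tested genes relative to trend. In all, 12 of the 37 genes lay above their trend, as did 3044 of 12636 genes.

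In each Trp53 wild-type group a single library held the highest value of more class I genes than any other library did. No test was made of this. In KT, library 1 was the highest in 5 of the 11 class I genes (45.5%) against 30.0% of all genes. It was also the lowest in 5 of them, and the other KT libraries were the highest in 3, 2 and 1. Non-restored library 3 was the highest of its 10 libraries in 6 of the 11 class I genes (54.5%) but in 8.68% of all genes, and restored library 7 was the highest of 7 in 6 of 11 against 15.9% of all genes. In non-restored library 3, B2m stood at 1594 CPM, against a group median of 301.8 and a minimum of 157.1 in library 4. Restored libraries held B2m from 325.7 through 647.4 to 1516 CPM. Nlrc5 ran from 0 through 0.509 to 10.7 CPM in the non-restored group, and from 1.57 through 2.29 to 9.07 in the restored group. The share of TPM that the inducible subunits Psmb8, Psmb9 and Psmb10 made up of the sum with their constitutive counterparts Psmb5, Psmb6 and Psmb7 had a median of 24.4% in KT (n = 4), 16.8% in non-restored (n = 10) and 19.0% in restored tumors (n = 7). The ranges overlapped, at 21.1 to 30.5%, 8.75 to 24.6% and 16.0 to 27.4%, and no test was made of this ratio.

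**Figure D3:**
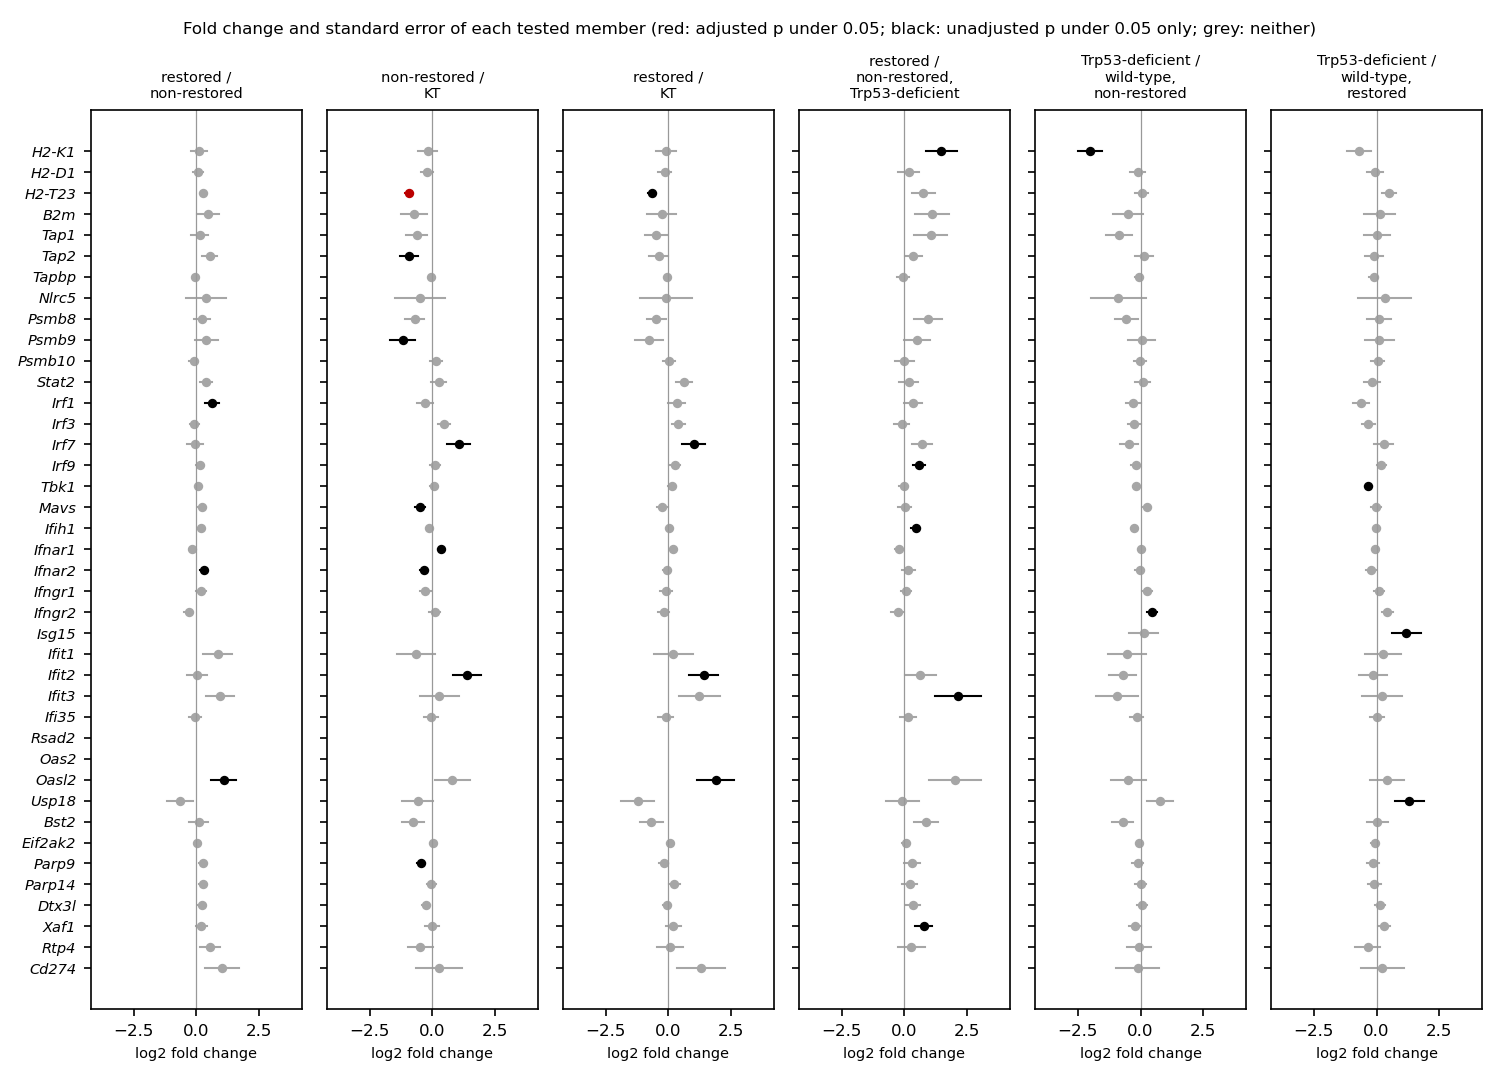
Log2 fold change and standard error of each tested gene in 6 comparisons. Red marks an adjusted p under 0.05, black an unadjusted p under 0.05 only and grey neither, and H2-T23 in non-restored against KT is the only red point.

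In Trp53-deficient tumors the restored group was compared with the non-restored group over 4 animals each. None of the 34 genes tested by edgeR was called (0% of 12516 genes were), and none of the 37 tested by DESeq2. Nlrc5, Ifit1 and Cd274 also fell below the edgeR filter here. An unadjusted p under 0.05 was reached by 5 by each tool (5.98% of all genes by edgeR), which for edgeR were Ifih1, H2-K1, Xaf1, Ifit3 and Irf9, all higher in restored tumors. Irf9, the DNA-binding part of the complex that type I interferon activates, measured 16.2, 18.5, 14.4 and 15.3 CPM in restored and 12.3, 8.85, 8.19 and 15.5 CPM in non-restored animals (0.57, SE 0.250, adjusted p = 0.804). Ifih1, the RNA sensor MDA5, measured 81.1, 112, 72.0 and 81.1 CPM in restored and 64.9, 75.8, 57.3 and 59.9 CPM in non-restored animals (0.45, SE 0.175, adjusted p = 0.804). Both pairs of groups overlapped. H2-K1 measured 219.2, 839.2, 171.1 and 235.9 CPM in restored and 99.0, 153, 223.3 and 61.8 CPM in non-restored animals (1.47, SE 0.608, adjusted p = 0.804). Of genes below 0, Ifnar1 had the smallest p (-0.23, SE 0.151, adjusted p = 0.805). In total 27 of 34 genes had a log2 fold change above 0, with a median of 0.31 beside 0.02 over all genes.

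This direction rested on 1 library. The second Trp53-deficient restored library was the highest of its 4 libraries in 32 of the 40 genes (80.0%), and in all 11 class I genes, but in 22.5% of all genes. B2m measured 477.6, 2278, 289.4 and 342.6 CPM over the 4 restored animals and 570.9, 265.2, 392.9 and 376.9 CPM over the 4 non-restored animals. H2-T23 measured 28.7, 99.2, 22.5 and 32.1 CPM against 30.8, 19.8, 28.1 and 32.9 CPM. Tap1, a chain of the TAP transporter, measured 3.82, 29.9, 5.85 and 4.65 CPM against 6.45, 5.19, 4.63 and 5.95 CPM. In all 3 genes the second restored library alone rose above the non-restored animals, while the other 3 lay within or near their range. Without it, 15 of 34 genes had a log2 fold change above 0, the median was -0.02 and no gene reached an unadjusted p under 0.05.

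Values that could move with that library are given here, without a test of their part in it. Its 25 immune markers summed to 32.3 CPM, within its group's range of 15.0 to 50.0, with Cd3d, Cd3e, Cd3g, Cd8a and Siglech at 0. The cytotoxic cell markers Nkg7 and Gzmb stood there at 0.197 and 0.59 CPM, and among all other libraries they had a read only in non-restored library 1 (Gzmb, 0.533 CPM). Macrophage markers (6 genes) summed to 11.8 CPM and lymphocyte markers to 1.57. It held 1 count of Ifng and 18.1 CPM of Cd274. A similar but weaker pattern appeared in the third Trp53-deficient non-restored library, which was the highest of 7 in 20 of 40 genes (50.0%) and in 20.1% of all genes. Other libraries of that library's own animal, the first and second, were at 9.953 and 5.999 CPM of Psmb8 against its 46.12, and at 2.41 and 2.18 CPM of Nlrc5 against its 7.69. Psmb8 thus spanned, within that animal, the lowest and the highest value of the whole group.

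The restoration effects in both Trp53 backgrounds were compared by an interaction term over 25 units. Units were single libraries of Trp53 wild-type tumors and whole animals of Trp53-deficient tumors. None of 38 genes was called (0% of 13706 genes were), by edgeR or DESeq2. With either tool 1 gene had an unadjusted p under 0.05 (3.08% of all genes by edgeR), H2-K1, with a difference of 1.33 (SE 0.640, adjusted p = 1). Without the second Trp53-deficient restored library that difference was 0.51 (SE 0.574). Of genes below 0, the adaptor Mavs had the smallest p, at -0.26 with an SE of 0.287.

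Trp53-deficient and Trp53 wild-type tumors were compared within each Lkb1 state. In non-restored tumors none of 38 genes was called by edgeR (0.584% of all genes were), and 1, H2-K1, by DESeq2. An unadjusted p under 0.05 was reached by 2 by both tools (17.7% of all genes by edgeR), H2-K1 and Ifngr2. H2-K1 (chr17:33996017-34000347, minus strand), a classical class I heavy chain, measured 99.0, 153, 223.3 and 61.8 CPM over the 4 Trp53-deficient animals. In Trp53 wild-type non-restored libraries H2-K1 ran from 261.8 through 412.1 to 1159 CPM. The groups did not overlap, but the share of all genes without overlap was not computed for this contrast. The difference was -2.02 (SE 0.490), a level 4.04 times lower, with an adjusted p of 0.0524 by edgeR and 0.000681 by DESeq2. Ifngr2, a chain of the interferon gamma receptor, measured 92.8, 49.8, 67.4 and 93.8 CPM against 39.2 through 49.7 to 96.7, and differed by 0.45 (SE 0.208, adjusted p = 0.262).

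The other class I molecule genes had smaller differences in this contrast, none of them called. H2-D1 (chr17:35262730-35267499, plus strand), the other classical heavy chain, differed by -0.12 (SE 0.316), H2-T23 by 0.04 and B2m by -0.49 (SE 0.602). H2-K1 made up 38.9 to 57.7% of the sum of H2-K1 and H2-D1 CPM in Trp53 wild-type non-restored libraries, 41.4 to 56.1% in KT and 49.7 to 55.8% in restored libraries. In the 7 Trp53-deficient non-restored libraries the share was 11.4, 9.95 and 17.9% for the 3 libraries of the first animal, 33.1 and 34.5% for those of the second, 34.8% for the third and 10.0% for the fourth. All 4 Trp53-deficient restored libraries lay between 36.8 and 43.9%. All Trp53-deficient non-restored libraries lay below every library of the other 4 groups. Within the first animal, H2-K1 itself ran from 56.2 to 165 CPM.

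Class I genes are near-identical in sequence, and RSEM divides reads among genes they fit equally, so values of single heavy chains are uncertain. With the counts of H2-K1, H2-D1, H2-K2 and the H2-Q genes summed (10 genes), the difference was -0.85 (SE 0.412, adjusted p = 0.285). With H2-D1 left out of the sum it was -1.78 (SE 0.539, adjusted p = 0.109). The part of read division in the H2-K1 value was not tested, and these sums were chosen after the H2-K1 values were seen.

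**Figure D4:**
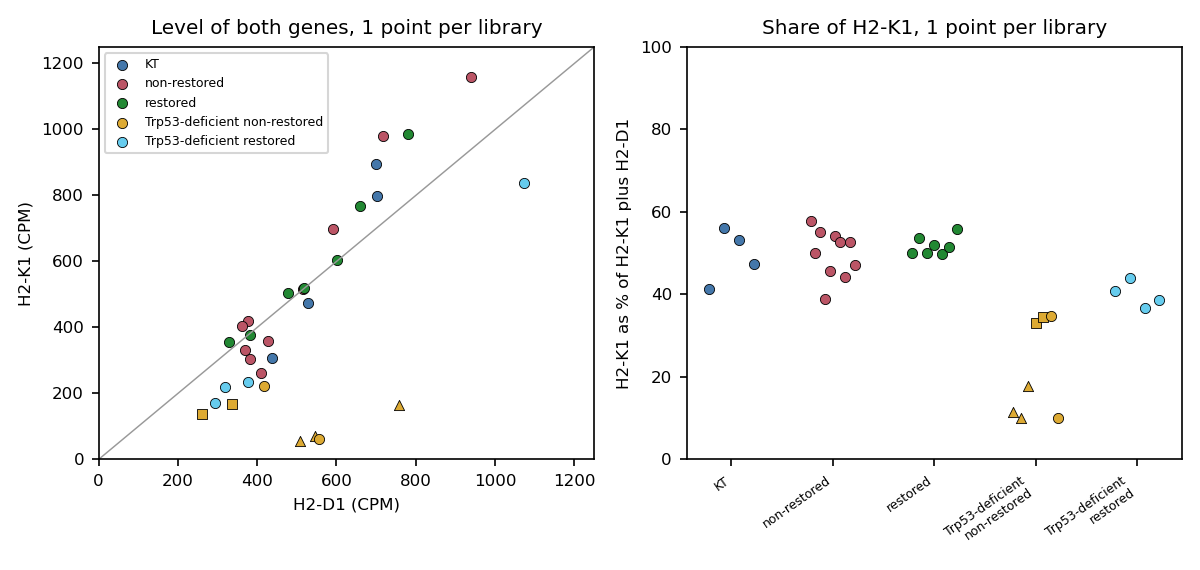
Left, H2-K1 against H2-D1 CPM in each library, with the line of equal values. Right, H2-K1 as a percentage of both, where triangles mark 3 libraries of a single Trp53-deficient animal, squares 2 libraries of another and circles all other libraries, and the Trp53-deficient non-restored libraries lie between 9.95 and 34.8%, below every library of the other groups.

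In restored tumors the same Trp53 contrast called none of 38 genes (0.372% of all genes were), by edgeR or DESeq2. An unadjusted p under 0.05 was reached by 3 with either tool (15.5% of all genes by edgeR). Usp18, which dampens type I interferon signalling, measured 0.898, 4.92, 4.05 and 5.76 CPM in Trp53-deficient restored libraries and from 0.376 through 1.54 to 2.29 in Trp53 wild-type ones (1.296, SE 0.579, adjusted p = 0.291). Isg15, a ubiquitin-like protein that Usp18 removes from its targets, measured 1.35, 5.904, 3.60 and 4.65 CPM against 0.980 through 1.79 to 2.47 (1.19, SE 0.5684, adjusted p = 0.315). Both genes were above all Trp53 wild-type values in 3 of 4 libraries, and many of these values lie near the level of 3 counts. The kinase gene Tbk1 measured 44.9, 52.4, 36.0 and 53.6 CPM against 50.3 through 55.8 to 74.1 (-0.33, SE 0.153, adjusted p = 0.304), with overlap. Without the second Trp53-deficient restored library, 33 of 38 genes were below 0 with a median of -0.40, against 17 of 38 and 0.02 with it.

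The non-restored group joined 2 control arms, and the genes were compared between them. None of 37 genes was called between the tamoxifen arm (4 libraries, no FLPo-ERT2) and the vehicle arm (6 libraries, FLPo-ERT2) by edgeR or DESeq2, where edgeR called 0.00791% of all genes. An unadjusted p under 0.05 was reached by 4 by edgeR (4.61% of all genes) and 5 by DESeq2. The 4 were Nlrc5, Tap1, Psmb9 and Irf9, all lower with tamoxifen. Nlrc5 ran from 0 through 0.212 to 1.93 CPM with tamoxifen and from 0 through 2.79 to 10.7 with vehicle (adjusted p = 0.954), and several libraries held no read of it. Irf9 did not overlap between the arms, at 8.99 to 12.3 against 12.8 to 17.6 CPM (-0.47, SE 0.187, adjusted p = 0.994). The share of all genes without overlap between the arms was not computed. Of genes above 0 with tamoxifen, Cd274 had the smallest p (1.55, SE 0.915, adjusted p = 1), and in female libraries alone its difference was -0.72. Tap1 differed by -1.05 and Psmb9 by -1.39, with overlap. Restored tumors all received tamoxifen. Against the tamoxifen arm alone the median of the restored minus non-restored differences was 0.34, and against the vehicle arm alone 0.13.

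Cd274 was low in most libraries and high in few. It ran from 0.397 through 1.53 to 12.8 CPM in non-restored and from 0.898 through 3.43 to 16.6 in restored libraries, a difference of 1.02 (SE 0.689, adjusted p = 0.521). In the Trp53 wild-type background the 3 highest values, 12.8 in non-restored library 2 and 16.6 and 11.03 in restored libraries 1 and 6, fell in the 3 libraries with the highest sums of 6 macrophage markers, at 146, 333 and 166 CPM, where no other library passed 43.8. The 6 were Mrc1, Marco, Itgax, Fcer1g, Tyrobp and Ptprc, and Ptprc (CD45) is not limited to macrophages. Of further immune markers in these 3 libraries, Adgre1 stood at 5.13, 16.6 and 5.07 CPM. C1qa was at 0 there and C1qb at 1.28 CPM or less. In the Trp53-deficient background it was high in 2 libraries, at 11.9 and 18.1 CPM, whose macrophage markers summed to 3.84 and 11.8. These latter were the same 2 libraries that led the class I genes. The part of macrophage RNA in the Cd274 values was not tested.

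**Figure D5:**
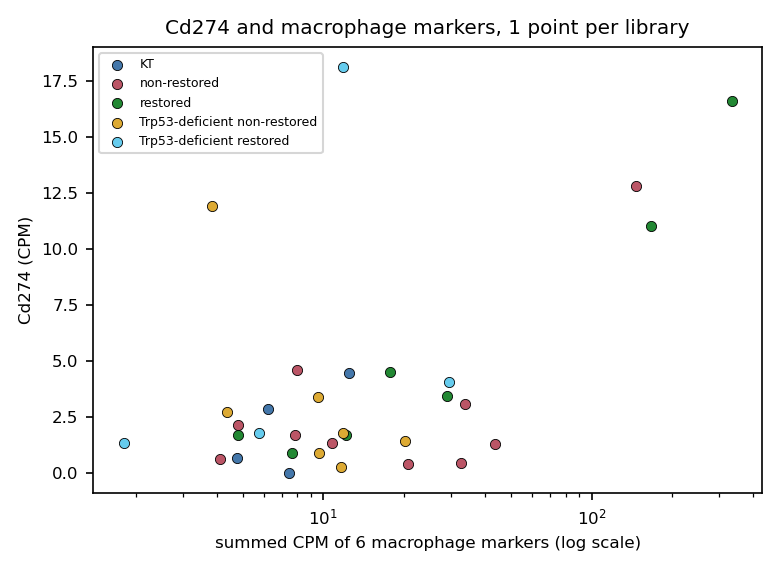
Cd274 CPM (vertical axis) against the summed CPM of 6 macrophage markers (horizontal axis, log scale) in each library. Of the 5 libraries above 10 CPM of Cd274, 3 have a marker sum of 146 or more and 2 have one of 11.8 or less.

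Further genes of both pathways were examined from lists of related genes. In non-restored against KT, 2 of 19 tested genes of class I presentation were called, both lower, where 5.86% of all genes were called. Mr1, which presents vitamin B metabolites to MAIT cells, differed by -1.39 (adjusted p = 0.00558) and the class Ib gene H2-Q2 by -0.73 (adjusted p = 0.0361). None of 18 genes of interferon signalling was called there by edgeR, with 2 at an unadjusted p under 0.05, and of 36 other interferon-stimulated genes only Samd9l was called, at -0.69 (adjusted p = 0.0314), a share below that over all genes. In restored against non-restored tumors 1 of the 19 class I genes was called, the constitutive proteasome subunit Psmb5, lower in restored tumors (-0.56, adjusted p = 0.0395), where 1.87% of all genes were called, and none of the 18 and 36 genes of the other lists. Mr1 lay at 18.2 to 58.6 CPM in KT and at 7.65 to 22.1 in non-restored libraries, with overlap, whereas H2-Q2 (21.9 to 32.2 against 9.63 to 21.4 CPM) and Samd9l (107.4 to 158.1 against 72.8 to 93.7 CPM) did not overlap. The calls of Psmb5, H2-Q2, Samd9l and Mr1 were lost under 17, 14, 9 and 3 of their alternatives. In the other 6 comparisons edgeR called no gene of these lists, with 0 to 8 genes per list at an unadjusted p under 0.05. The shares of all genes at that p ran from 3.08 to 17.7% in these comparisons. The 8 were among 36 other interferon-stimulated genes between the tamoxifen and vehicle arms, where 4.61% of all genes reached it. Of them 6 were lower and 2 higher with tamoxifen.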

How the data were processed

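Sorted neoplastic cells were profiled with a ribosomal-depletion kit and paired-end sequencing. The authors aligned reads with STAR 2.6.1d to mm10 and quantified genes with RSEM 1.2.30, and deposited expected counts, TPM and effective lengths per library. Their normalized table and their tables of log2 fold changes and p-values (made with DESeq2 1.26.0) were not used. Expected counts, which RSEM divides among genes that share reads, were rounded. Of all gene rows, those at 0 included, 4.05 to 6.83% per library held values that were not whole. The share among values above 0 is larger and was not computed.

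Genes were filtered with filterByExpr (minimum count 10), scaled by TMM and tested with edgeR 4.0.16 (robust quasi-likelihood) in R 4.3.3, with Benjamini-Hochberg adjustment over all genes tested and a threshold of 0.05. Fold changes are on the log2 scale and CPM uses the TMM sizes of all 32 libraries. The 3 Trp53 wild-type groups shared a fit. Libraries of a Trp53-deficient animal were summed. DESeq2 1.42.0, other scalings, no filter, sex as a covariate, single arms and the omission of each library were alternatives. DESeq2 was run without filterByExpr and tested all 40 members, or 37 of them in the restoration comparison of Trp53-deficient tumors. The script was tested on simulated data. Members and lists were chosen with earlier results of these data known. Members named by rule were those called in the first 4 comparisons and, in each comparison, the member with the smallest p in each direction. Of the lists of related genes, called genes were named. Other members with values were chosen after their values were seen. The omission of 3 libraries with macrophage markers and the summed class I counts were also chosen after seeing the data. Gene positions are from GENCODE M21 and promoters from RefSeq, matched by symbol. Figures used matplotlib 3.10.9. Some genes are not reported here.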

Additional observations from a re-analysis of the deposited data

Results flagged for a closer look

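In each group of 4 to 10 samples, the highest or lowest value of a gene was set against the nearest other by Dixon's criterion, which chance alone passes in about 1 in 20 groups. It was passed in 23 of 199 groups tested. The second Trp53-deficient restored library accounted for 11 of them, always as the highest. There H2-K1 stood at 839.2 CPM, H2-D1 at 1072, H2-T23 at 99.19 and B2m at 2278. Tap1 stood at 29.91 CPM, Nlrc5 at 13.97, Psmb9 at 35.23 and Psmb10 at 22.04. Irf7 reached 11.81 CPM, Dtx3l 62.58 and Cd274 18.11. The cause was not tested.

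The other 12 were spread over samples. Of Trp53-deficient non-restored animals, the fourth stood apart in Psmb10 (15.55 CPM) and Ifngr1 (69.98 CPM), and the first in Parp14 (97.53 CPM), Rtp4 (5.677 CPM) and Cd274 (5.419 CPM). KT library 1 was highest in Mavs (30.66 CPM) and lowest in Ifih1 (74.95 CPM). KT library 3 was lowest in Ifit3 (2.024 CPM), and it held 1.214 CPM of Rsad2. Non-restored library 1 held 7.464 CPM of Rtp4 and non-restored library 2 held 12.83 CPM of Cd274. Restored library 7 stood at 41.95 CPM of Stat2.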

How the results depend on the processing

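The number of genes called out of the 40 was recomputed under 175 alternatives, and it was unchanged in 169. In non-restored against KT it was 3 in place of 1 without non-restored replicate 8 (H2-T23, Ifit2 and Ifnar1), so that leaving out single libraries gave 1 to 3. With the replicate number as a block it was also 3 (H2-T23, Ifit2 and Tap2). No source used here says that a number shared by groups marks a shared mouse or day. Correlations of deviations between same-numbered libraries ran from -0.03 to 0.13 between KT and non-restored, from -0.05 to 0.08 between KT and restored and from 0.05 to 0.50 between non-restored and restored (5 of 7 pairs above 0.1). Since not every pair was above 0.1 the numbers were not taken to pair the samples, and a shared batch was not tested. In the Trp53 contrast of non-restored tumors the count was 1 (H2-K1) in place of 0 under DESeq2, with libraries of an animal not summed, and without non-restored replicate 4 or 8, a range of 0 to 1 when single samples were left out. Adjusted p-values of H2-K1 there ran from 0.0133 to 0.278 over the samples left out. In the other 6 comparisons the count was 0 throughout.

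Of 534 alternatives for 23 single-gene results, 485 kept the direction and the side of the threshold, 43 lost a call, 5 gained one and 1 reversed. The reversal was Cd274 between the arms, at -0.72 in female libraries alone. H2-T23 in non-restored against KT was called in each alternative, with leave-one-out values of -1.03 to -0.85. None of these summed H2-T23 with other class I genes, so the part of read division in its value was not tested. The lost calls were those of Psmb5 (17 alternatives), H2-Q2 (14), Samd9l (9) and Mr1 (3). The causes were not tested. Depth limits genes near 3 counts, among them Nlrc5, Isg15, Rsad2 and Oas2.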
